A study of Homo sapiens with 15 samples.

Results

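The 9 genes described here encode proteins that bind elements in the 3′UTR of mRNAs and set how long those mRNAs last: ZFP36, ZFP36L1, ZFP36L2, ELAVL1, KHSRP, TIA1, TIAL1, CELF1 and PUM2. They were chosen by name, with earlier results of these data known, and are 9 of the 23368 genes in the count table. All 9 had over 10 reads in every library and passed the filter on low values. RNA-seq of polyadenylated RNA was available for 3 breast cancer cell clones, each untreated or treated with doxycycline at 1, 2.5, 5 or 25 ng/ml, and each of these 15 conditions was sequenced as 1 library. WT6 and WT10 cells carry FLAG-tagged wild type RBM47, an RNA-binding protein, behind a promoter that doxycycline switches on. MUT3 cells carry the truncated RBM47-I281fs behind the same promoter. Each clone grew from a single cell, so a clone stands for 1 founder cell and its genetic background. The number of transgene integrations is not given. All 3 clones share the Tet-On machinery and, at matched doses, the antibiotic. The sample labels give MDA231 as the line of every clone, whereas the study's methods derive WT10 and MUT3 from a brain metastatic derivative of it and WT6 from another line, CN34-BrM2.

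Regulators of this kind read short sequences. ZFP36 (tristetraprolin) and its paralogs ZFP36L1 and ZFP36L2 are zinc finger proteins that bind AU-rich elements built around UAUUUAU and bring in the CCR4-NOT deadenylase, which shortens the poly(A) tail and starts decay. KHSRP also promotes decay of AU-rich mRNAs, ELAVL1 (HuR) binds many of the same elements and protects the mRNA, TIA1 and TIAL1 bind U-rich stretches and hold back translation, CELF1 binds GU-rich elements and PUM2 binds UGUANAUA. Several of the mRNAs that encode these proteins hold the same elements in their own 3′UTRs, which is why the elements are shown first.

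Sequences are from GRCh37 with GENCODE transcripts, in the 5′ to 3′ direction of the mRNA with T for U. Each site lies within 1 exon, in the 3′UTR. Capitals mark the UAUUUAU or UGUANAUA match, and the lower case letters are its flanks. The ZFP36 sites are all 3 in its 3′UTR of 708 bases and lie so close together that their flanks overlap. For ZFP36L1, ZFP36L2 and ELAVL1, 1 of 3, 1 of 3 and 1 of 5 sites are shown, and for TIAL1 1 of 2 UGUANAUA sites. The flank of the ELAVL1 site shown holds the start of another UAUUUAU match that overlaps it.
ZFP36, chr19:39899822-39899848, plus strand: atgggcccttTATTTATgacgacttta
ZFP36, chr19:39899837-39899863, plus strand: atgacgacttTATTTATtctaatatga
ZFP36, chr19:39899862-39899888, plus strand: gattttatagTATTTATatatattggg
ZFP36L1, chr14:69255054-69255080, minus strand: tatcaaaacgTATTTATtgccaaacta
ZFP36L2, chr2:43450588-43450614, minus strand: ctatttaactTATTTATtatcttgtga
ELAVL1, chr19:8026713-8026739, minus strand: tttatgtattTATTTATtgaagtgtga
TIAL1, chr10:121334373-121334398, minus strand: gatacatatTGTAAATAttcaataac
PUM2, chr2:20450905-20450930, minus strand: ttatagagaTGTATATAgaattatag
PUM2, chr2:20450645-20450670, minus strand: cagaaatatTGTATATActtacatat

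The search covered the mRNA strand of 1 transcript per gene, and each share below is of the 3′UTRs of tested genes within 20% of that gene's 3′UTR length. UAUUUAU contains AUUUA, so the counts of these motifs overlap. ZFP36 held 3 UAUUUAU in 708 bases, where 22.8% of 1179 3′UTRs of like length held at least 1. ZFP36L1 and ZFP36L2 also held 3 each, in 1871 and 1917 bases, where 40.3% and 40.7% of like 3′UTRs held 1 or more. ELAVL1 had 5 in 4910 bases, a length at which 72.1% of 3′UTRs had at least 1. The 5 lie in a cluster, with starts from base 1604 to 1638 of the 3′UTR, and those at 1634 and 1638 share bases. TIA1, TIAL1, CELF1 and PUM2 had 1 each. KHSRP had none in 1922 bases, where 40.8% of like 3′UTRs had one, and it had 1 AUUUA against a median of 4. UGUANAUA occurred in TIAL1 and PUM2 only among the members, 2 times each, where 37.9% and 45.2% of like 3′UTRs held it. A match describes these letters in this window and is not evidence of binding.

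The libraries held between 14955172 and 44771871 reads on genes (median 18152381), and the deepest was WT10 at 5 ng/ml. The least covered member value rested on 202 reads. RBM47, counted from the transgene and the endogenous gene together, rose from 258 to 10425 normalized counts in WT6 cells, from 168 to 19877 in WT10 cells and from 73.8 to 22084 in MUT3 cells between 0 and 25 ng/ml. WT6 stood apart from the dose order at 5 ng/ml, where RBM47 was 3966, below the 8094 at 2.5 ng/ml. At 1, 2.5 and 5 ng/ml RBM47 read 827, 2822 and 8134 in WT10 and 92.1, 336 and 949 in MUT3. Contrasts with MUT3 below thus compare slopes on equal doses, not on equal RBM47 levels. The study also reports low levels of the mutant protein, although its mRNA was strongly expressed. VIM and CD44, from a fixed list of markers for these lines, were high in every library, with VIM at 50755 or more. KRT8, from the same list, was at 8159 or more. EPCAM lay between 136 and 456, and ESR1 was at 12.0 or less. Of 10 markers of other cell types, 7 stayed under 10 normalized counts in every library and CD3E was at 0, while the sum over the 10 ran from 247 to 336 in WT6, from 299 to 515 in WT10 and from 263 to 315 in MUT3. Values are normalized read counts, which scale the reads of each library by its DESeq size factor, and in bulk RNA less of an mRNA per cell cannot be told apart from fewer cells that carry it.

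Levels were compared between genes per length, as RPKM (reads per kb of transcript, scaled to all reads on genes), and are given as the mean ± SD over the 5 doses of a clone, so the SD includes any change with dose. In WT6 cells ZFP36L1 was the most abundant member at 81.5 ± 5.47. ZFP36L2 (50.7 ± 3.56) and KHSRP (48.8 ± 14.6) came next and did not differ beyond their spread, followed by TIAL1 at 37.5 ± 2.43 and ZFP36 at 29.01 ± 6.39, whose ranges overlapped each other and that of KHSRP. ELAVL1 (21.3 ± 2.98), CELF1 (19.0 ± 4.05) and PUM2 (18.2 ± 4.42) formed one overlapping group, and TIA1 was lowest at 5.73 ± 2.11.

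The order differed in WT10 and MUT3 cells, where KHSRP led with 118 ± 19.3 and 124 ± 4.13. ZFP36L1 was at 101 ± 10.8 in WT10, overlapping KHSRP, and at 77.9 ± 1.26 in MUT3, below every KHSRP library of that clone. TIAL1 (44.6 ± 3.07 in WT10, 49.0 ± 2.19 in MUT3) and ELAVL1 (37.6 ± 2.70 and 42.8 ± 0.634) followed in both clones without overlap between them. PUM2 (22.2 ± 1.55 and 22.6 ± 1.08) and CELF1 (16.2 ± 0.804 and 21.1 ± 0.801) overlapped in MUT3 only. At the low end ZFP36L2 was at 14.8 ± 0.420 (overlapping CELF1) in WT10 and 15.2 ± 0.231 in MUT3, ZFP36 at 11.1 ± 0.560 and 9.04 ± 0.994 and TIA1 at 6.56 ± 1.28 and 8.41 ± 0.436, and the ranges of ZFP36 and TIA1 overlapped in MUT3.

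**Figure D1:**
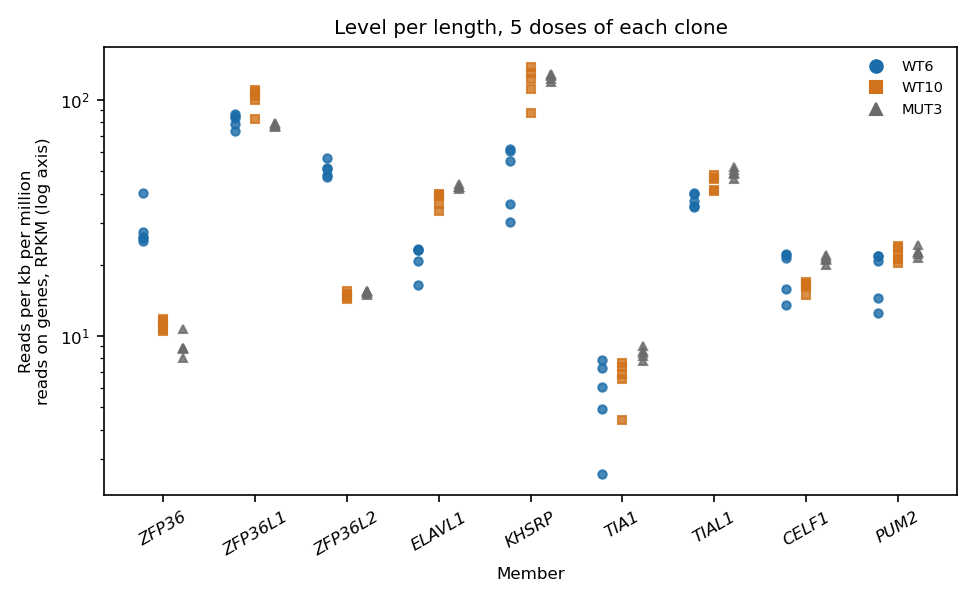
Level of each member per length (RPKM, log axis), with 1 point per library and the 5 doses of WT6 (circles), WT10 (squares) and MUT3 (triangles) side by side. ZFP36 and ZFP36L2 stand higher in WT6 than in both other clones, and KHSRP and ELAVL1 lower.

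Between clones, the fitted level without doxycycline differed for 6 of the 9 members between WT6 and WT10 (limma, adjusted p under 0.05), where 59.6% of all 12644 genes tested differed. The largest differences were in the ZFP36 family. ZFP36L2 was 1.84 ± 0.08 (SE) log2 units higher in WT6 (adjusted p = 4.91e-11), and ZFP36 was 1.23 ± 0.13 higher (adjusted p = 8.63e-07). CELF1 was 0.63 ± 0.09 higher. KHSRP (-0.94 ± 0.10), ELAVL1 (-0.56 ± 0.09) and ZFP36L1 (-0.33 ± 0.08) were lower in WT6. PUM2 (0.19), TIA1 (0.29) and TIAL1 (0.01) did not pass the test. By the methods these clones come from different parental lines, so line and clone cannot be told apart.

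WT10 and MUT3, which share a parental line by the methods, differed in the untreated level of 4 of 9 members, against 28.2% of all genes. ZFP36L1 (0.50 ± 0.08) and ZFP36 (0.45 ± 0.14) were higher in WT10, and CELF1 (-0.35 ± 0.09) and TIAL1 (-0.29 ± 0.10) were lower (adjusted p between 0.00021 and 0.043). Leaving out the untreated library of WT10 or of MUT3 left 1 member, ZFP36L1, above the threshold, and leaving out WT10 at 2.5 ng/ml or MUT3 at 25 ng/ml left 2. In the same order 2624, 2105, 3078 and 2603 of 12644 genes then passed, beside 3562 in the full fit. TIAL1 lost its call in 9 of 15 fits that left out 1 library (-0.33 to -0.25 over all 15), ZFP36 in 4, CELF1 in 2 and ZFP36L1 in 0.

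Change with dose was tested in one limma fit as a slope for each clone, in log2 units of normalized count per unit of log2(dose + 1), with doses taking the place of replicates. The p-values therefore measure the scatter of all 15 libraries about the 3 fitted lines, with 1 estimate of spread per gene shared by the clones. Nothing states that the doses came from separate cultures. In WT6 cells 5 members fell, namely KHSRP, TIA1, CELF1, PUM2 and ELAVL1, and 2 rose, ZFP36 and ZFP36L2. Across all genes tested 28.3% fell and 29.2% rose in this clone, so most genes passed the test in one direction or the other. In WT10 cells 3 members fell, KHSRP, TIA1 and ZFP36L1, where 9.83% of all genes fell, and 0 rose, where 10.2% of all genes rose. KHSRP and TIA1 fell in both wild type clones, as did 7.34% of all genes. In MUT3 cells limma called 0 of 9 members and 0 of all genes (0% of genes tested), RBM47 included (adjusted p = 0.0517). At an unadjusted p under 0.05 there was 1 member, ZFP36, and 295 genes in all. On recovered reads edgeR called 1 gene in MUT3 and DESeq2 8, with 0 members among them. Fitted alone, MUT3 had 176 genes (1.39%) past the threshold, again with 0 members.

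The median slope of the 9 members was -0.10 in WT6 beside 0.0053 over all genes, -0.04 in WT10 beside -0.0027, and 0.00097 in MUT3 beside 0.0033. The calls of members and of all genes alike depended on the highest dose. Without the WT6 library at 25 ng/ml, 4 members (KHSRP, TIA1, CELF1 and PUM2) kept a falling slope in WT6, where 17.2% of all genes then fell and 19.4% rose. Without the WT10 library at 25 ng/ml limma called 0 of 9 members in WT10, but also only 6 of 12644 genes, so that fit does not set the members apart (1 member and 1924 genes had an unadjusted p under 0.05). Leaving out WT6 at 5 or 25 ng/ml added ELAVL1 to the WT10 calls, with its slope unchanged at -0.07. All genes called in WT10 then rose from 2527 to 4142 and 3002 of 12644.

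**Figure D2:**
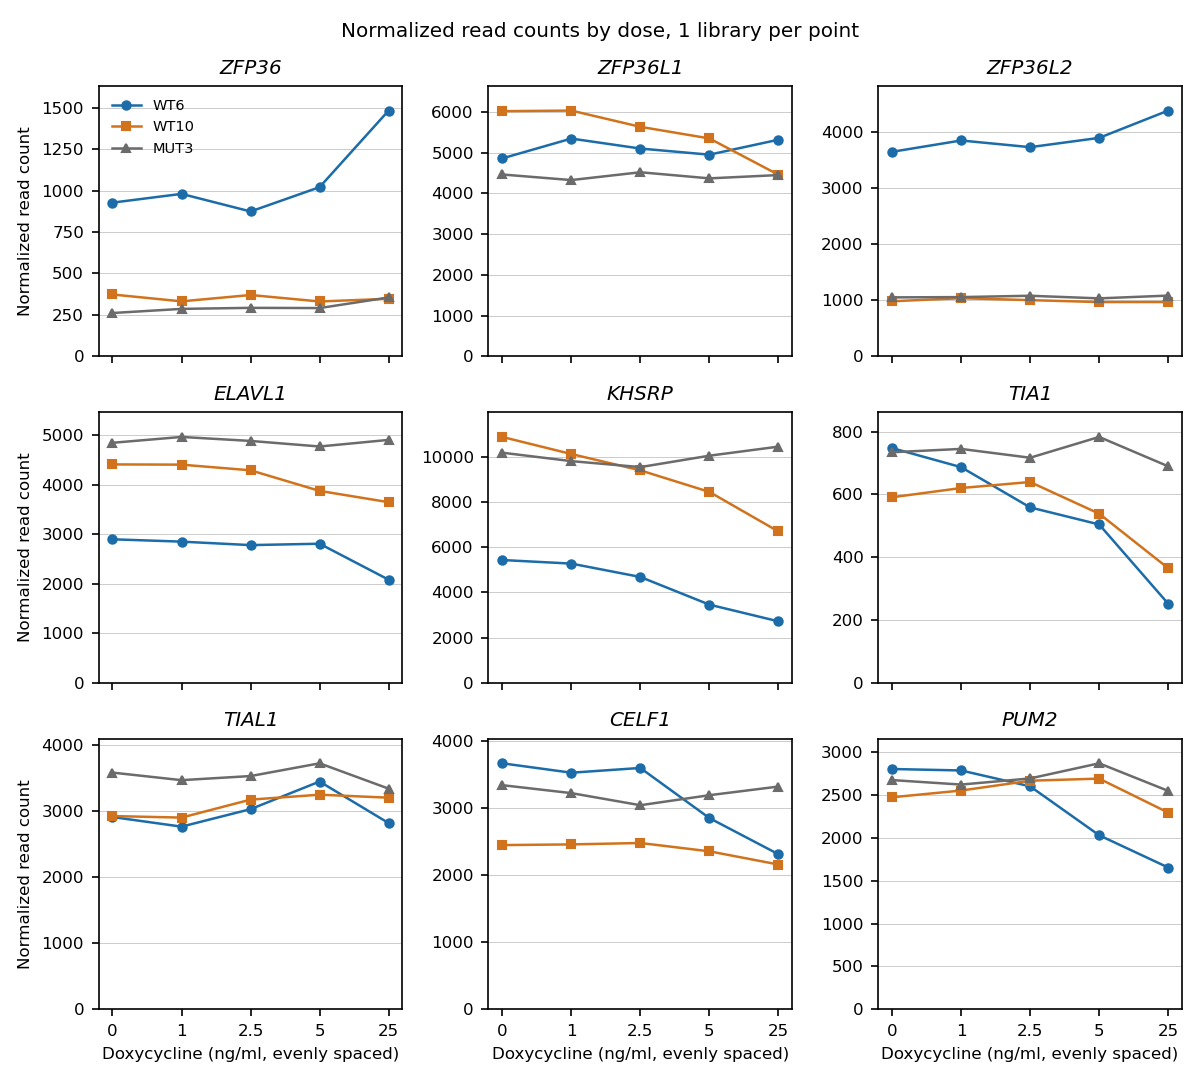
Normalized read count (vertical axes from 0) against doxycycline dose (ng/ml, evenly spaced) for each member, with 1 library per point in WT6 (circles), WT10 (squares) and MUT3 (triangles). In WT6 and in WT10, KHSRP and TIA1 are lowest at 25 ng/ml, whereas ZFP36 is highest at 25 ng/ml in WT6.

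Among the decay-promoting ZFP36 proteins, ZFP36 itself read 927, 980.0, 874, 1020.5 and 1482 normalized counts in WT6 cells at 0, 1, 2.5, 5 and 25 ng/ml. In WT10 cells the values were 373, 332, 370.0, 331 and 347, and in MUT3 cells 261, 286, 293, 291 and 355. Every WT6 library was above every library of the other clones, and the highest value in WT6 and in MUT3 was the one at 25 ng/ml. The slope in WT6 was 0.15 ± 0.03 (SE, adjusted p = 0.0013), and the last library was 1.60 times the untreated one (95% exact interval of counting error 1.46 to 1.75). MUT3 had a slope of 0.09 ± 0.04 that did not pass, with a ratio at 25 ng/ml of 1.36 (1.14 to 1.62), and WT10 had -0.02 ± 0.04. Without the WT6 library at 25 ng/ml the WT6 slope was 0.03 and not called.

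ZFP36L1, the most abundant of the family, read 6017, 6032, 5633, 5348 and 4458 in WT10 cells over the same doses. In WT6 it read 4858, 5345, 5100.1, 4949.8 and 5316, and in MUT3 4463, 4326, 4518, 4368 and 4449. Only WT10 declined at each step from 1 ng/ml on, and its library at 25 ng/ml lay within the MUT3 range. The WT10 slope was -0.10 ± 0.02 (adjusted p = 0.0052), with a ratio of 0.741 (0.712 to 0.771) at 25 ng/ml, and without that library it was -0.07 and not called. WT6 (0.02) and MUT3 (0.00097) did not pass. ZFP36L2 read 3643, 3845, 3726, 3891 and 4377 in WT6, against 967 to 1036 in WT10 and 1033 to 1082 in MUT3. Its WT6 values were above all others, and the slope of 0.05 ± 0.02 (adjusted p = 0.032) was lost without the WT6 library at 25 ng/ml (0.03) or the untreated one (0.06).

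Per length, the makeup of the family therefore differed between clones. ZFP36L1 gave between 46.4% and 52.8% of the summed level of the 3 genes in WT6 and between 74.8% and 81.0% in the other clones. ZFP36 gave 17.0% in untreated WT6 and 22.4% at 25 ng/ml, and between 7.69% and 10.3% in WT10 and MUT3. ZFP36L2 stayed between 30.9% and 32.1% in WT6. The summed level read 133, 135, 130, 125 and 108 RPKM in WT10 over the 5 doses, and 153, 166, 161, 147 and 180 in WT6. In MUT3 it ranged from 100.4 to 104. These sums were not tested.

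KHSRP, a KH domain protein that promotes decay and also takes part in microRNA maturation, showed the most regular decline. Its counts were 5438, 5279.7, 4687, 3461 and 2721 in WT6 cells and 10893, 10136, 9412, 8457 and 6703 in WT10 cells. In MUT3 cells they were 10194, 9821, 9556, 10062 and 10463. KHSRP was lower at every step of dose in both wild type clones, the 1 member for which this held, beside 2.48% of all genes. It was lower at every step in WT6 with TIA1 and PUM2 (3 members, 8.76% of genes), in WT10 with ELAVL1 (2 members, 9.63% of genes), and no member did so in MUT3 (0.989% of genes).

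The KHSRP slope was -0.23 ± 0.03 in WT6 (adjusted p = 9.63e-06) and -0.15 ± 0.03 in WT10 (adjusted p = 0.0013), against 0.01 ± 0.03 in MUT3. At 25 ng/ml the count was 0.5003 times that of untreated cells in WT6 (0.476 to 0.526) and 0.615 times in WT10 (0.596 to 0.635), and 1.03 times in MUT3 (0.997 to 1.06). Without its 25 ng/ml library the WT10 slope was -0.14, close to the value with it, but did not pass. Leaving out any 1 library kept the call in WT6.

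ELAVL1, which protects AU-rich mRNAs, read 2898, 2850.3, 2780.2, 2808 and 2082 in WT6 cells. The WT10 values were 4411, 4406, 4292, 3875 and 3647, and the MUT3 values lay between 4772 and 4965. The 3 clones did not overlap, and in WT6 the value at 25 ng/ml alone stood away from the others. The WT6 slope was -0.10 ± 0.02 (adjusted p = 0.0027) with a ratio of 0.718 (0.675 to 0.764) at 25 ng/ml, and -0.02 without that library. WT10 gave -0.07 ± 0.02, which missed the threshold (adjusted p = 0.061), with a ratio of 0.827 (0.790 to 0.865), and MUT3 gave -0.00031. Per length, the ratio of KHSRP to ELAVL1 went from 2.66 in untreated WT6 to 1.85 at 25 ng/ml and from 3.50 to 2.60 in WT10, and lay between 2.77 and 3.02 in MUT3.

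TIA1 and TIAL1 are paralogs that gather in stress granules and repress translation, and their mRNAs moved differently. TIA1 read 747, 687, 558, 504 and 252 in WT6 cells and 591, 620.1, 639, 538 and 365 in WT10 cells, against 734, 745, 717, 783 and 689 in MUT3. Both values at 25 ng/ml in wild type clones were below every other TIA1 value of the series. TIA1 had the steepest slope of any member in WT6 (-0.33 ± 0.04, adjusted p = 2.32e-05), where the count at 25 ng/ml was 0.337 times the untreated one (0.286 to 0.394). In WT10 the slope was -0.16 ± 0.04 (adjusted p = 0.013) and the ratio 0.617 (0.539 to 0.707), but without the library at 25 ng/ml the slope was -0.04 and not called, since the counts at 1 and 2.5 ng/ml were above the untreated one. MUT3 gave -0.02 ± 0.04.

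TIAL1 read 2911, 2765, 3030.0, 3448 and 2819 in WT6, 2925, 2902, 3175, 3249 and 3204 in WT10, and 3584, 3469, 3532, 3725 and 3341 in MUT3. The highest value of each clone was at 5 ng/ml, and none of the slopes passed (0.0061 in WT6, 0.03 in WT10, -0.01 in MUT3). Per length, TIA1 was 17.5% of the summed TIA1 and TIAL1 level in untreated WT6 cells and 6.87% at 25 ng/ml, and 14.3% and 8.59% in WT10. In MUT3 it stayed between 14.4% and 15.1%. The annotation places C2orf42 on the same strand across part of TIA1, so reads in the shared part could be counted for neither or either gene.

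CELF1, which binds GU-rich elements and promotes deadenylation, read 3669, 3529, 3599.6, 2852 and 2312 in WT6. In WT10 it read 2448, 2458, 2479, 2355 and 2158, and in MUT3 3343, 3224, 3043, 3193 and 3322. The drop in WT6 came at 5 and 25 ng/ml. Its slope there was -0.15 ± 0.03 (adjusted p = 0.00020) and the ratio at 25 ng/ml 0.630 (0.595 to 0.667), while WT10 (-0.04 ± 0.03, ratio 0.882) and MUT3 (0.0016) did not pass. NDUFS3 and PTPMT1 lie across part of CELF1 on the opposite strand. HTSeq uses strand by default, but whether the libraries kept it is not given in the sources used here.

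PUM2, the Pumilio protein that binds UGUANAUA and carries 2 such sites in its own 3′UTR, read 2806, 2789, 2603, 2031 and 1654 in WT6. In WT10 the counts were 2475, 2554, 2669, 2693 and 2296, and in MUT3 2676, 2624, 2695, 2872 and 2549.8. The WT6 values at 5 and 25 ng/ml were below every value of the other clones, while WT10 and MUT3 overlapped. The WT6 slope was -0.18 ± 0.03 (adjusted p = 0.00014) with a ratio of 0.590 (0.551 to 0.630) at 25 ng/ml, and the slopes in WT10 (-0.02 ± 0.03) and MUT3 (-0.0081 ± 0.03) did not pass.

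**Figure D3:**
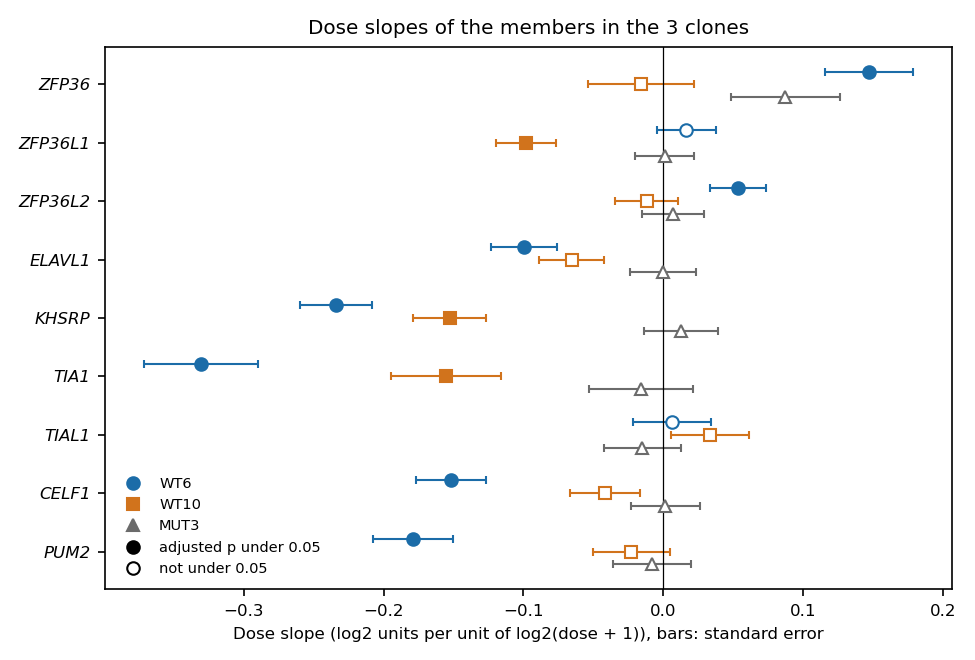
Dose slope of each member (log2 units per unit of log2(dose + 1)) with its standard error in WT6 (circles), WT10 (squares) and MUT3 (triangles), filled where the limma adjusted p was under 0.05. KHSRP and TIA1 are filled and negative in both wild type clones, and no MUT3 point is filled.

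The difference between slopes was then tested directly. Averaged over WT6 and WT10, the slope was lower than in MUT3 for 4 of 9 members, where 14.6% of all genes were lower. These were TIA1 (-0.23 ± 0.05, adjusted p = 0.0042), KHSRP (-0.21 ± 0.03, adjusted p = 0.0011), CELF1 (-0.10 ± 0.03, adjusted p = 0.031) and ELAVL1 (-0.08 ± 0.03, adjusted p = 0.0496). PUM2 (-0.09 ± 0.03, adjusted p = 0.058) was just outside. No member passed with a higher mean slope in the wild type clones, and the median difference of the members was -0.08 beside 0.0023 over all genes. ELAVL1 lost the call in 11 of 15 fits that left out 1 library (-0.10 to -0.04 over all 15) and kept it without WT6 at 0, 2.5 or 5 ng/ml or WT10 at 0 ng/ml. CELF1 lost it in 6 (-0.12 to -0.06), those without WT6 at 25 ng/ml, WT10 at 1 or 25 ng/ml or MUT3 at 0, 1 or 25 ng/ml. KHSRP and TIA1 lost it in 1 each, the fit without MUT3 at 25 ng/ml, where the differences were -0.18 and -0.27 and only 3 of 12644 genes passed at all.

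Between WT10 and MUT3, 1 of 9 slopes differed, against 5.62% of all genes. It was that of KHSRP (-0.17 ± 0.04, adjusted p = 0.021), and the call was lost without WT10 at 1 or 25 ng/ml or MUT3 at 0 or 25 ng/ml, with differences between -0.14 and -0.18. Without the WT10 or the MUT3 library at 25 ng/ml, 0 and 2 of all genes passed this contrast. TIA1 (-0.14 ± 0.05, adjusted p = 0.14) and ZFP36L1 (-0.10 ± 0.03, adjusted p = 0.064) did not pass. Between WT6 and WT10, 3 of 9 differed, against 14.4% of all genes. ZFP36 (0.16 ± 0.05, adjusted p = 0.042) and ZFP36L1 (0.11 ± 0.03, adjusted p = 0.027) had the higher slope in WT6 and PUM2 (-0.16 ± 0.04, adjusted p = 0.026) the lower. ZFP36 lost this call in 12 of 15 fits without 1 library (0.04 to 0.21 over all 15) and kept it without WT6 at 0, 2.5 or 5 ng/ml. ZFP36L1 lost it without WT6 at 0 or 25 ng/ml or WT10 at 0, 1 or 25 ng/ml (0.09 to 0.13), and PUM2 without WT6 at 1 or 25 ng/ml or WT10 untreated (-0.23 to -0.13). The slopes of KHSRP (-0.08 ± 0.04, adjusted p = 0.13), TIA1 (-0.18 ± 0.06, adjusted p = 0.051) and CELF1 (-0.11 ± 0.04, adjusted p = 0.050) were not shown to differ between the wild type clones. These contrasts share libraries, so they are not separate evidence.

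Transcript length moved with the WT6 values. Genes were split by transcript length into 5 groups of equal size, from group 1 (shortest) to group 5 (longest). At 5 and 25 ng/ml, the median WT6 gene of group 1 was 0.60 and 0.58 log2 units above its untreated value and that of group 5 was at -0.41 and -0.46, while in the other libraries both medians lay between -0.08 and 0.06. The members span this range. ZFP36, at 1747 bases, lies in group 1, whose median WT6 slope was 0.15, the same as that of ZFP36. ELAVL1 (6054 bases), PUM2 (6309) and CELF1 (8132) lie in group 5, with a median slope of -0.11 beside their -0.10, -0.18 and -0.15. KHSRP (4276) and TIA1 (4634) lie in group 4, where the median was -0.07 beside -0.23 and -0.33. ZFP36L1 (3017), ZFP36L2 (3693) and TIAL1 (3827) lie in group 3, with a median of -0.0067.

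With the trends on transcript length and GC content removed from every library (12107 genes), 6 of 9 members had a WT6 slope past the threshold, beside 58.5% of all genes in that fit. KHSRP was at -0.20 ± 0.02 (adjusted p = 5.32e-06) and TIA1 at -0.26 ± 0.03 (adjusted p = 3.19e-06). PUM2 (-0.09 ± 0.01) and CELF1 (-0.05 ± 0.02) still passed with smaller slopes, ZFP36L2 passed at 0.08 ± 0.02, and TIAL1 now passed with a rising slope of 0.05 ± 0.02 (adjusted p = 0.045). ZFP36 (0.03 ± 0.03) and ELAVL1 (-0.01 ± 0.03) no longer passed. In WT10, where 36.1% of all genes passed, KHSRP, TIA1 and ZFP36L1 again fell, with slopes of -0.12 ± 0.02, -0.18 ± 0.03 and -0.10 ± 0.02. KHSRP (-0.16 ± 0.03) and TIA1 (-0.21 ± 0.03) remained lower in the mean of the wild type clones than in MUT3, as did 21.5% of all genes, and ELAVL1 and CELF1 did not pass. What part length plays in the remaining WT6 values was not tested.

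**Figure D4:**
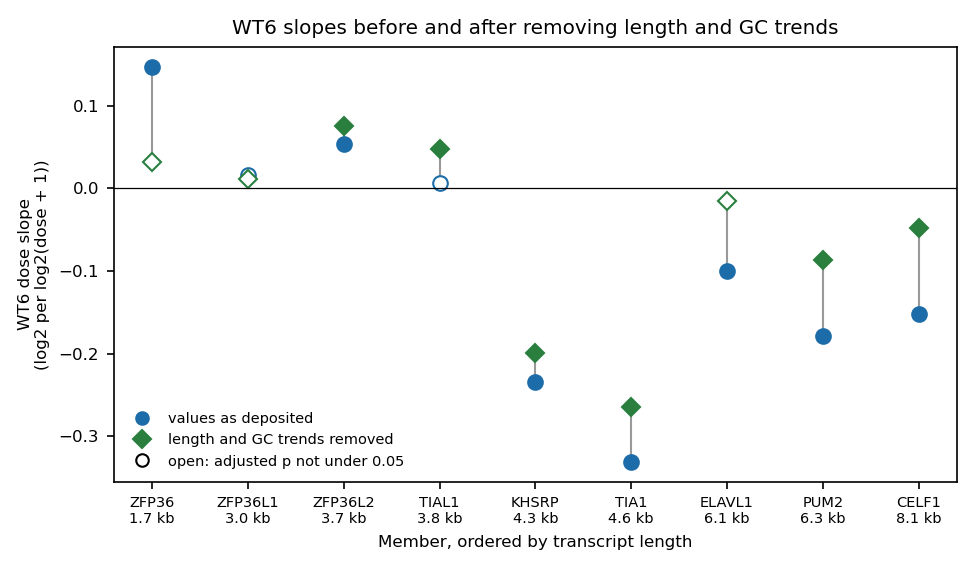
WT6 dose slope of each member (log2 units per unit of log2(dose + 1)) as deposited (circles) and with length and GC trends removed (diamonds), with members ordered by transcript length and open symbols where the limma adjusted p was not under 0.05. The slopes of TIA1 and KHSRP move to -0.26 and -0.20 and those of ZFP36 and ELAVL1 to 0.03 and -0.01.

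Likeness of pattern was measured as Pearson's r of log2 values centred within each clone, over the same 15 libraries, which share depth, scaling and the WT6 length trend. It is given as a description. The most alike members were TIA1 and ELAVL1 (r = 0.930), KHSRP and CELF1 (0.929), CELF1 and PUM2 (0.925) and TIA1 and KHSRP (0.921). ZFP36 and ZFP36L2 ran together (0.805) and opposite to PUM2 (-0.761 and -0.777). TIAL1 had no r above 0 with any other member. Outside the members, the genes most like ZFP36 were SMPD1 (0.949), GALNTL1 (0.912) and ACAD8 (0.903). Those most like ELAVL1 were KLF2 (0.972), UNG (0.967) and MTHFD1L (0.960), and those most like PUM2 were ZBTB11 (0.985), ZMYM1 (0.985) and RANBP2 (0.984).

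Enzymes of mRNA decay, through which several of the members act, were followed as fixed lists, to be read against the shares of all genes that rose (29.2% in WT6, 10.2% in WT10, 7.02% in both) and fell (28.3%, 9.83% and 7.34%). Of 19 deadenylation genes tested, 2 rose and 11 fell in WT6 and 1 rose and 3 fell in WT10, with median slopes of -0.09 and -0.02. The 3 that fell in both were CNOT3, a CCR4-NOT subunit (-0.21 ± 0.03 in WT6 and -0.14 ± 0.03 in WT10), PAN3 (-0.20 ± 0.04 and -0.11 ± 0.03) and TOB2 (-0.10 ± 0.03 and -0.11 ± 0.03), and the 1 that rose in both was BTG1 (0.25 ± 0.03 and 0.16 ± 0.03). Of 16 genes of decapping and 5′ to 3′ decay, 4 rose and 5 fell in WT6 and 1 rose and 3 fell in WT10, and EDC4, a decapping scaffold, fell in both (-0.15 ± 0.04 and -0.11 ± 0.03). Of 18 genes of the exosome and 3′ to 5′ decay, 4 rose and 6 fell in WT6 and 2 fell in WT10, with DIS3L, a catalytic subunit, in both (-0.23 ± 0.03 and -0.12 ± 0.03). Of 12 genes of microRNA silencing, 3 rose and 7 fell in WT6 and 0 passed in WT10 by limma. No gene of these lists passed in MUT3. The WT6 counts of these lists and of the lists below carry the trend with transcript length described above. Median WT6 slopes ran from 0.15 in the group of shortest transcripts to -0.11 in that of the longest. List counts with the trend removed are not given here.

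Of 18 other binders of 3′UTR elements that were tested, out of 28 listed, 4 rose and 6 fell in WT6 and 6 rose and 2 fell in WT10. ZC3H12A (Regnase-1), an endonuclease that cleaves cytokine mRNAs, rose in both, from 503 to 967 normalized counts in WT6 and from 241 to 706 in WT10 between 0 and 25 ng/ml, with 143 and 179 in MUT3. CPEB2 rose in both too (0.17 ± 0.04 and 0.16 ± 0.04), and IGF2BP2 fell in both (-0.18 ± 0.02 and -0.08 ± 0.02).

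**Figure D5:**
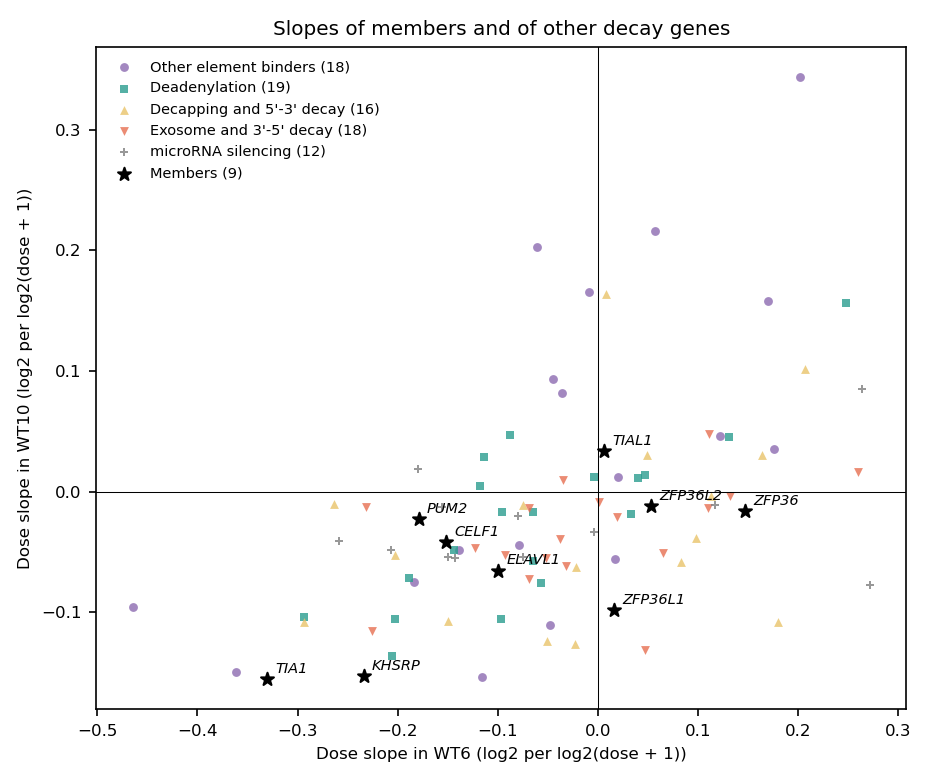
Dose slope in WT10 against dose slope in WT6 (both in log2 units per unit of log2(dose + 1)), with 1 point per gene for the 9 members (stars) and 5 lists of other mRNA decay genes. TIA1 and KHSRP lie in the lower left, with slopes of -0.33 and -0.23 in WT6 and -0.16 and -0.15 in WT10.

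Messages known to carry AU-rich elements, the kind of element that ZFP36, KHSRP and ELAVL1 bind, made up the last list. Binding of these proteins to the listed mRNAs was not measured. Of 25 tested out of 30, 13 rose and 5 fell in WT6, 12 rose and 2 fell in WT10, and 10 rose in both, beside 29.2%, 10.2% and 7.02% of all genes that rose. The mean wild type slope was higher than that of MUT3 for 7 and lower for 4, beside 10.1% and 14.6% of all genes. The list was chosen with earlier results of these data known, so these counts are a description and not a test of the list. The list had median slopes of 0.10, 0.04 and, in MUT3, 0.05. CXCL1, a chemokine, went from 54.8 to 1041 normalized counts in WT6 between 0 and 25 ng/ml and from 121 to 1798 in WT10, with 251 and 338 in MUT3. IL1A went from 26.3 to 496 and from 95.2 to 3193, with 81.3 and 196 in MUT3. IL8 (0.75 ± 0.07 in WT6 and 0.89 ± 0.06 in WT10) and IL1B (0.43 ± 0.10 and 0.86 ± 0.07) rose in both as well. Whether these changes bear on those of the members was not tested.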

How the data were processed

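RNA-seq libraries were paired-end reads that the authors mapped to hg19 with STAR and counted per gene with HTSeq 0.5.4 at default settings. HTSeq uses strand by default, and neither the annotation nor whether the libraries kept strand is given in the sources used here. The authors deposited DESeq size-factor normalized counts, a signal per gene and library, and HTSeq tallies in which reads on no feature made up between 56.5% and 59.6%. Whole reads were recovered from the step that 1 read makes in each column, and 100% of the values came out whole (within 0.001). A floor of 3 reads corresponded to 1.19 to 4.09 normalized counts, and intervals cover counting error only (95%, exact).

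The members and lists were chosen with earlier results of these data known. The named genes were all members, RBM47, at most 4 genes of each fixed list with the largest mean wild type slope among those past the threshold in both wild type clones with the same sign, and the 3 genes most like ZFP36, ELAVL1 and PUM2. limma 3.58.1 was run in R 4.3.3 on log2(normalized count + 1) with vooma weights over all 15 libraries and the 12644 genes with a mean of at least 10 in each clone. The fit had 6 coefficients, for each clone an intercept and a slope against log2(dose + 1), and 9 residual degrees of freedom, with Benjamini-Hochberg adjustment over all genes and a threshold of 0.05. It was tested on simulated data. edgeR 4.0.16 and DESeq2 1.42.0 on recovered reads, other scalings, filters, pseudocounts and codings of dose, and leaving out libraries were alternatives. Symbols were matched to GENCODE (release 44 lifted to GRCh37) for 91.8% of genes, and length, GC content and 3′UTRs came from 1 transcript per gene. The level of 1 cell type marker is not reported here.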

Additional observations from a re-analysis of the deposited data

Results flagged for a closer look

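The slopes below are listed because a test of the difference between clones passed (limma, adjusted p under 0.05). Each is a difference of slopes on the log2 scale used above, and the causes were not tested. Of all genes, 14.6% had a lower mean wild type slope than MUT3, 5.62% differed between WT10 and MUT3 and 14.4% between WT6 and WT10. The mean wild type slope was lower than the MUT3 slope for 4 members, namely TIA1 (-0.23), KHSRP (-0.21), CELF1 (-0.10) and ELAVL1 (-0.082). KHSRP also had a lower slope in WT10 than in MUT3 (-0.17), clones that share a parental line by the study's methods. WT6 and WT10 differed for ZFP36 (0.16) and ZFP36L1 (0.11), both higher in WT6, and for PUM2 (-0.16), lower in WT6. Against MUT3, the mean wild type call was lost by ELAVL1 in 11 of 15 fits without 1 library and by CELF1 in 6. TIA1 and KHSRP lost it in 1 each. KHSRP lost the call between WT10 and MUT3 in 4. Between WT6 and WT10 the call was lost in 12 for ZFP36, 5 for ZFP36L1 and 3 for PUM2. The WT6 libraries at 5 and 25 ng/ml carry the trend with transcript length, and with it removed the difference between WT6 and WT10 was 0.05 for ZFP36 and -0.06 for PUM2, neither past the threshold, and 0.11 for ZFP36L1, which still passed. In the same fit the mean wild type slope stayed lower than that of MUT3 for TIA1 (-0.21) and KHSRP (-0.16). CELF1 (-0.03) and ELAVL1 (-0.02) did not pass there.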

How the results depend on the processing

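Counts of members past the threshold are given in the order slope in WT6, slope in WT10, mean wild type minus MUT3, WT10 minus MUT3 and WT6 minus WT10, which were 7, 3, 4, 1 and 3. With any doxycycline against none they were 0, 0, 0, 0 and 0, and with log2 RBM47 count as the dose also 0, 0, 0, 0 and 0. At an unadjusted p under 0.05 the former gave 0 members in each and the latter 3, 2, 1, 1 and 1, by limma in both cases, and limma called between 0 and 89 of all genes there. Without the libraries at 25 ng/ml they were 4, 0, 0, 0 and 0, with 5, 1, 2, 0 and 2 at an unadjusted p under 0.05, and limma then called 4688, 17, 1, 0 and 7 of the 12644 genes. With the rank of the dose, mean wild type minus MUT3 gave 2 and WT10 minus MUT3 gave 0. Of all genes, 22% and 2.06% passed there. Removal of length and GC trends gave 2, 3 and 1 for the last 3 comparisons, beside 36.2%, 18.6% and 15.1% of all genes. DESeq2 gave 2 for WT10 minus MUT3 and 5 for WT6 minus WT10, beside 8.43% and 19.2% of all genes. As reported, the last 3 comparisons passed for 24.6%, 5.62% and 14.4% of all genes. Untreated levels differed between WT6 and WT10 for 2 members with any doxycycline against none (6 as reported), and between WT10 and MUT3 for 0 with that coding and 2 with the rank of the dose (4 as reported). The shares of all genes were 24.8%, 1.58% and 24.2% in that order (59.6% and 28.2% as reported). The cause of these changes was not tested.

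Leaving out 1 library gave 4 to 7 members in WT6, 0 to 4 in WT10, 0 to 0 in MUT3, 0 to 5 for mean wild type minus MUT3, 0 to 2 for WT10 minus MUT3, 0 to 5 for WT6 minus WT10, 6 to 8 for the level between WT6 and WT10 and 1 to 4 for the level between WT10 and MUT3. Over these fits limma called 4623 to 7891 of 12644 genes in WT6, 6 to 4142 in WT10 and 0 to 4 in MUT3. For the slope differences, in the order above, it called 3 to 4914, 0 to 2262 and 59 to 3714. For the levels it called 6292 to 8478 between WT6 and WT10 and 2105 to 5158 between WT10 and MUT3. For single members, 80 values lost and 11 gained the threshold over the other alternatives, 710 stayed on their side, and 0 called values changed sign. With 1 library per clone and dose, variation between cultures was not measured, and 202 reads or more lay behind each member value. No correlation with dose within a clone was run, since each has 5 libraries. Fitting each clone alone gives no comparison between clones, and the RBM47 coding gives no untreated level. A block on dose between clones was not fitted.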
